A study of Mus musculus with 9 samples.

Results

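The genes that copy DNA during S phase were followed in mouse muscle cells in which TGFβ signaling had been raised or lowered. They are 48 genes for origin licensing, helicase activation, DNA polymerases, clamps and clamp loading, ligation, nucleotide supply, chromatin copying and entry into S phase. They were chosen by name, with earlier results of these data known. Each had a probe set, so all 48 were measured, among 24704 probe sets with a single gene symbol that were tested. They are named by role below and each is given with its log2 fold change, while the value on every array is printed for 12 of them.

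A cell copies its genome once per cycle. In G1, ORC, CDC6 and CDT1 load rings of the MCM2-7 helicase onto origins, and at the start of S phase CDC45 and the GINS complex join them and unwind the DNA. Primase and the polymerases α, δ and ε then make the new strands while PCNA, a ring loaded by RFC, holds the polymerases on the template and ribonucleotide reductase supplies deoxynucleotides. Many of these genes are driven by E2F transcription factors, which the retinoblastoma protein holds back until cyclin-dependent kinases phosphorylate it. Myoblasts leave the cell cycle as they differentiate, and TGFβ is known to hold epithelial cells in G1.

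Cultures of 3 groups were compared, with 3 arrays in each. All were primary myoblasts grown from the satellite cells of C57BL/6 mice (C57Bl6/N in the methods), which are muscle stem cells, and all had spent 24 h in differentiation medium at 30000 cells per cm2 before treatment. One group then received 20 ng/ml of TGFβ1 for 24 h and another received ITD-1, a small molecule that clears TGFBR2, the receptor that binds TGFβ, off the cell membrane, for 24 h. The third was left untreated as the control and is listed with a treatment time of 0 h. The methods do not say whether control cultures were collected at the same time as the treated ones. A part of time in culture in the differences from control was not tested. The methods give 5 µM for ITD-1 and the sample labels 5 mM. Satellite cells had been enriched by removing other cell types with magnetic beads. The labels do not say which cultures came from separate mice, and p-values measure the spread between these cultures only.

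Signals are RMA-normalized log2 values from Affymetrix MouseGene 2.0 ST arrays, on which a difference of 1 is a 2-fold change. Array medians lay between 4.09 and 4.19, and arrays correlated across probe sets at 0.992 to 0.996 within groups and at 0.983 to 0.995 between them. The number of arrays limits the precision, and with groups of 3 the lowest p that an exact permutation test allows is 0.1. All 7 muscle markers lay above the median level of all probe sets, with a mean signal of 11.51 to 11.59 with TGFβ1, 11.43 to 11.53 with ITD-1 and 11.42 to 11.52 in control cultures. Of these, *Ckm*, the muscle creatine kinase, was higher with TGFβ1 than in control (log2 fold change 0.93, adjusted p = 0.00051) and than with ITD-1 (1.13, adjusted p = 8.28e-05), *Myh3*, the embryonic myosin heavy chain, was lower (-0.31, adjusted p = 0.0224, and -0.35, adjusted p = 0.00898), and 5 did not pass. Against control the call of *Myh3* was lost without any control replicate or TGFβ1 replicate 1 or 2 (adjusted p of 0.0583 to 0.0876) and with the replicate number as a block in a fit of TGFβ1 and control alone (0.0523). Of markers of other cells, 4 of 5 for fibroblasts, 4 of 4 for endothelium, 3 of 5 for leukocytes and 1 of 4 for mural cells lay below the median level of all probe sets. *Itgam*, a leukocyte marker, was lower with TGFβ1 than in control (log2 fold change -0.74, adjusted p = 0.0085) and than with ITD-1 (-0.82, adjusted p = 0.00293), and *Rgs5*, a mural cell marker, was lower with TGFβ1 (-1.28, adjusted p = 0.000179) and with ITD-1 (-1.02, adjusted p = 0.00643), and the part of such cells in the results below was not tested. *Ckm*, *Myh3*, *Itgam* and *Rgs5* were named after their values were seen. No other marker of leukocytes or mural cells was called. Of the 5 leukocyte markers, 2 had log2 fold changes above 0 and 3 below with TGFβ1 against control (median -0.03). Of the 4 mural cell markers, 2 were above 0 and 2 below with TGFβ1 (median 0.07), and 1 above and 3 below with ITD-1 (-0.05). An array of a whole culture cannot tell fewer cells in S phase from less of the replication gene transcripts per cell. Among the 48 genes, 32 had a mean signal at or above the median of all probe sets, and 13 had an identical value on 3 or more arrays (*Chaf1a* on 7). Below that median lay *Orc1*, *Cdc6*, *Mcm10*, *Cdc45*, *Gins1*, *Gins2*, *Pola1*, *Prim1*, *Pole*, *Pole2*, *Rfc3*, *Fen1*, *Chaf1a*, *Chaf1b*, *Brca1* and *Ccne2*.

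The promoters of these genes were read for 2 sequence motifs that are known from cell cycle genes. RefSeq windows of 300 bases, from 250 before to 50 after the start site on the build GRCm38.p6, were at hand for 41 of the 48. An E2F motif, written TTTCCCGC, TTTCGCGC, TTTGCCGC or TTTGGCGC and searched on both strands, was present in a window of 18 of the 41 genes (43.9%), against 704 of 27025 genes of the table (2.6%) and 744 of its 32851 windows (2.26%). A CCAAT box, the letters CCAAT on either strand, was present for 26 of 41 genes (63.4%), against 41.1% of all genes and 37.4% of all windows. A match describes letters in the window and not a bound factor. *Mcm4*, *Rfc2*, *Pole*, *Prim2*, *Gins2*, *Ccne2* and *Gins1* had no entry.

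The windows of 3 helicase genes and of both ribonucleotide reductase genes are shown because results below turn on these genes, with both motifs in capitals on whichever strand they lie. *Mcm6* lies at chr1:128359656-128359955 on the minus strand, *Mcm7* (the second of its 2 windows) at chr5:138171834-138172133 on the minus strand and *Mcm3* at chr1:20820263-20820562 on the minus strand. *Rrm1* lies at chr7:102441445-102441744 and *Rrm2* at chr12:24708004-24708303, both on the plus strand.
Mcm6: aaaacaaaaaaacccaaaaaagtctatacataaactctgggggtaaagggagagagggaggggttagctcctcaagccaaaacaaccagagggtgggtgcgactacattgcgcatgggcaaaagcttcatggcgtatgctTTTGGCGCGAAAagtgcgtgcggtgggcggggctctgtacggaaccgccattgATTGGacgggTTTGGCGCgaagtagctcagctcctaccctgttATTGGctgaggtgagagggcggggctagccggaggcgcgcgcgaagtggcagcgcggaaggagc
Mcm7: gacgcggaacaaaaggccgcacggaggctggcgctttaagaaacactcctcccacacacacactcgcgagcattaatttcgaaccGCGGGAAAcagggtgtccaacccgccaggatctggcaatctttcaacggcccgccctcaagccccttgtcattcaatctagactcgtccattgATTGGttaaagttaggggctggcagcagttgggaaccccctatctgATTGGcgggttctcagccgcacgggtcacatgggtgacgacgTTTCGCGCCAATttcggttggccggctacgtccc
Mcm3: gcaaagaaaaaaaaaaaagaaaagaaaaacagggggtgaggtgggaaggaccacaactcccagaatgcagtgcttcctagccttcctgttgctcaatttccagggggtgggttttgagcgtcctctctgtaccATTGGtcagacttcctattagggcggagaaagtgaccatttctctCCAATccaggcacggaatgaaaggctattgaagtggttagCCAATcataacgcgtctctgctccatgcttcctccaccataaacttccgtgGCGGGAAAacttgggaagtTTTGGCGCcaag
Rrm1: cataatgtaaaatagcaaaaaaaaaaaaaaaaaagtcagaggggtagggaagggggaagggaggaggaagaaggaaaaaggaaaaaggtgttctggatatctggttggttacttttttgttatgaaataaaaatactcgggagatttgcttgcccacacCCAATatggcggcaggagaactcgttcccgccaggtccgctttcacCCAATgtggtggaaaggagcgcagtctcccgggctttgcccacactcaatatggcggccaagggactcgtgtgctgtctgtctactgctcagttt
Rrm2: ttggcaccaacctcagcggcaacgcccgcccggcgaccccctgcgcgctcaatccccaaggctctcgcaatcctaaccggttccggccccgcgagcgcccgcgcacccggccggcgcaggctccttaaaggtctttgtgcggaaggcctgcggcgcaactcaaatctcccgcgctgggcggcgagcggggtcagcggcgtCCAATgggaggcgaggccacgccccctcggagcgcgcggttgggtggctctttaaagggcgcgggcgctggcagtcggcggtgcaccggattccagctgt
The *Mcm6* window holds 3 E2F matches, of which 2 overlap each other, and 2 CCAAT boxes. The *Mcm7* window holds 2 E2F matches and 3 CCAAT boxes, with 1 of the boxes overlapping an E2F match, and the *Mcm3* window holds 2 and 3. *Rrm1* has 2 CCAAT boxes and *Rrm2* has 1, with no match to these E2F spellings in either window. Among windows not shown of genes called below, that of *Gins3* holds 1 E2F match and those of *Pcna* and *Chaf1b* hold 0. Genes that were not called also hold E2F matches, among them *Cdt1*, *Uhrf1*, *Dnmt1*, *Orc1* and *Mcm5*.

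With TGFβ1, most replication genes stayed near their control level. *Mcm6*, a subunit of the replicative helicase, was higher and *Rrm1*, the large subunit of ribonucleotide reductase, was lower, and the other 46 of 48 did not pass the test. Of all probe sets, 3.65% were called higher and 2.78% lower in this comparison. The median log2 fold change was -0.00 over the 48 genes and -0.01 over all probe sets, with 23 genes above 0 and 25 below. The 3 TGFβ1 arrays lay wholly above the 3 control arrays for 2 genes (*Mcm6* and *Gins3*), against 10.4% of all probe sets, and wholly below for 7 (*Cdt1*, *Rrm1*, *Tk1*, *Uhrf1*, *Dnmt1*, *Ccne1* and *Cdk2*), against 10.1%.

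With ITD-1, no replication gene passed the test by limma in either direction, where 0.0607% of all probe sets were called higher and 0.575% lower. At an unadjusted p under 0.05, 11 of the 48 were lower and 0 were higher, against 4.46% and 3.42% of all probe sets. The log2 fold change was below 0 for 42 of 48 genes (87.5%), against 47.7% of all probe sets, with a median of -0.14 against 0.01. The ITD-1 arrays lay wholly below the control arrays for 11 genes, namely *Cdt1*, *Mcm3*, *Mcm4*, *Mcm7*, *Rfc2*, *Rpa1*, *Rrm2*, *Chaf1b*, *Uhrf1*, *Dnmt1* and *Ccne1*, against 5.92% of all probe sets, and wholly above for 1 (*Rrm1*), against 5.22%. The mean log2 signal over the 48 genes was 5.27, 5.29 and 5.20 on the TGFβ1 arrays and 5.10, 5.12 and 5.10 on the ITD-1 arrays, against 5.31, 5.26 and 5.24 on the control arrays. Their median signal overlapped between groups. It was 5.40, 5.37 and 5.19 with TGFβ1 and 5.08, 5.25 and 5.14 with ITD-1, against 5.22, 5.09 and 5.26 in control cultures. Single alternatives turned the count of 0 lower genes into 1 or 2. *Mcm7* passed without ITD-1 replicate 3 (adjusted p = 0.0409), as did *Chaf1b* (0.0181), and *Uhrf1* passed without TGFβ1 replicate 2 (0.0312), which bears on this comparison only through the shared spread.

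Between the treatments the differences were larger. Against ITD-1, 8 of 48 genes were higher with TGFβ1 (*Mcm3*, *Mcm4*, *Mcm6*, *Mcm7*, *Gins3*, *Pcna*, *Rrm2* and *Chaf1b*), 1 was lower (*Rrm1*) and 39 did not pass, while 5.92% of all probe sets were called higher and 4.26% lower. The log2 fold change was above 0 for 36 genes (75%), against 42.5% of all probe sets, and its median was 0.09 against -0.03. That median was 0.15 without TGFβ1 replicate 3. The TGFβ1 arrays lay wholly above the ITD-1 arrays for 12 genes, against 11.3% of all probe sets, and wholly below for 2 (*Rrm1* and *Tk1*), against 12.1%. The 3 comparisons share arrays, so a high or low array enters 2 of them.

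**Figure D1:**
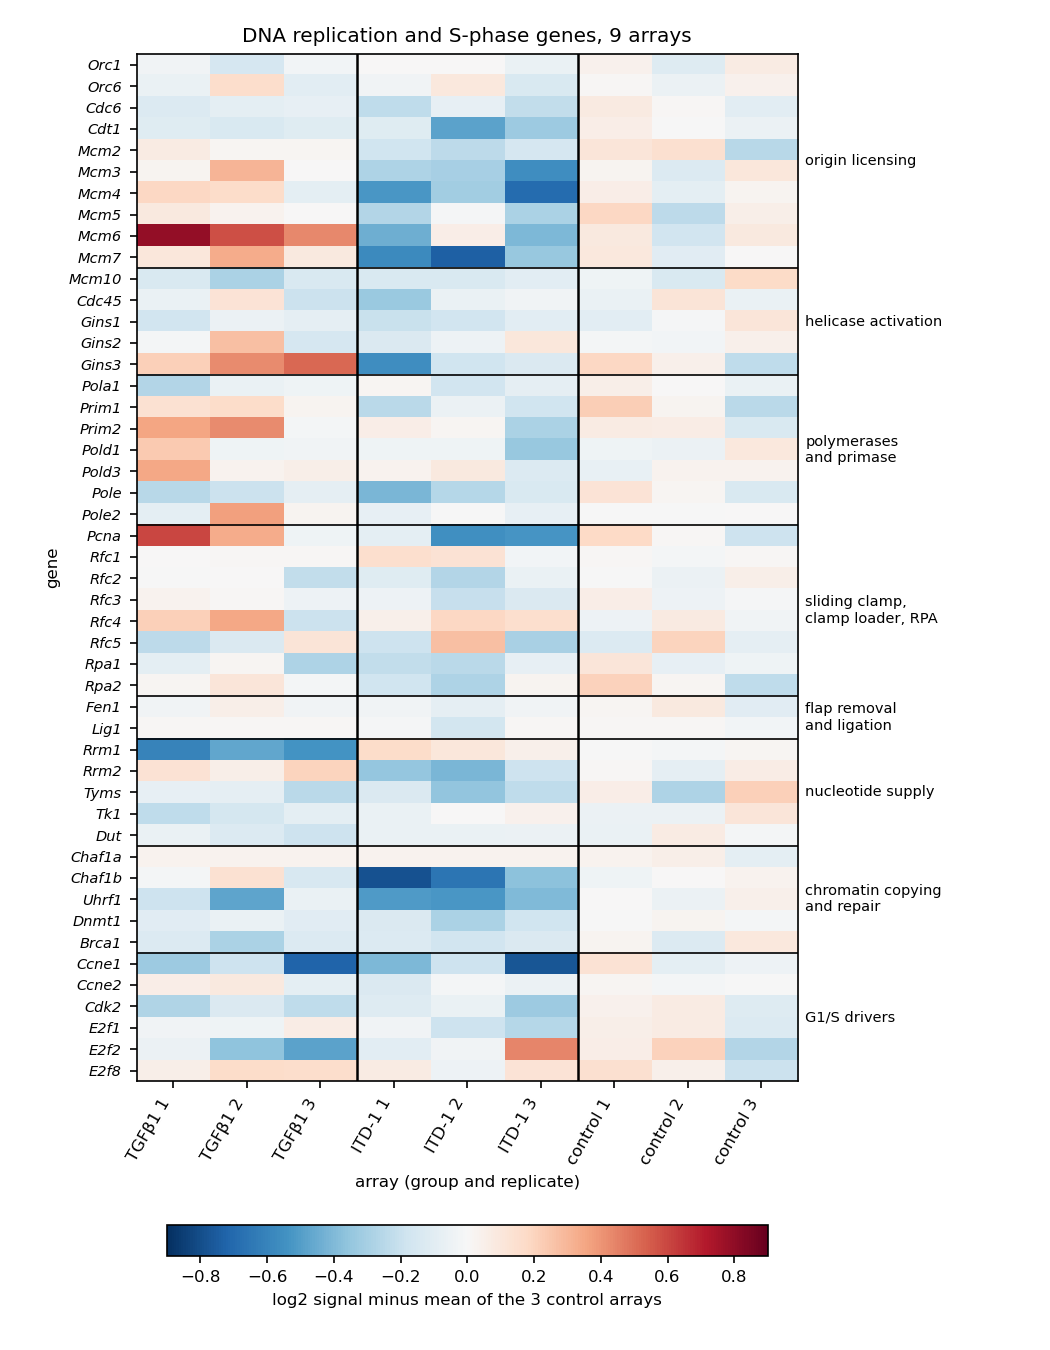
Log2 signal of each of the 48 replication genes on each of the 9 arrays, minus the mean of the 3 control arrays, with genes in rows ordered by role and arrays in columns. Red is above and blue below the control mean. *Mcm6* is red on the 3 TGFβ1 arrays, *Rrm1* is blue on the same 3, and most rows are pale blue on the ITD-1 arrays, where 42 of 48 genes averaged below control.

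The called genes of origin licensing were all subunits of the helicase ring. Of the 10 licensing genes, 1 was called higher with TGFβ1 than in control, 0 were called with ITD-1 and 4 were called higher with TGFβ1 than with ITD-1. Of all probe sets, 3.65% were called higher with TGFβ1 than in control. With ITD-1, 0.0607% were called higher and 0.575% lower, and 5.92% were called higher with TGFβ1 than with ITD-1. *Mcm6* (Entrez gene 17219) had log2 signals of 6.02, 5.81 and 5.66 with TGFβ1 and 4.79, 5.29 and 4.83 with ITD-1, against 5.31, 5.06 and 5.31 in control cultures. The TGFβ1 arrays lay above all 6 others, and the ITD-1 and control arrays overlapped. *Mcm6* rose 1.52-fold with TGFβ1 over control (log2 fold change 0.60, standard error 0.15, adjusted p = 0.0413) and was 1.82-fold higher with TGFβ1 than with ITD-1 (0.86, adjusted p = 0.00413), while ITD-1 differed from control by -0.26 (95% interval -0.59 to 0.07). The rise over control was not stable. Its adjusted p was 0.0781 with the replicate number as a block in the fit of all arrays, 0.0318 with that block in a fit of these 2 groups alone, 0.0879, 0.159 and 0.0809 when control array 1, 2 or 3 was left out, 0.156 and 0.111 when TGFβ1 array 1 or 2 was left out, 0.0507 when ITD-1 array 3 was left out, and 0.154 with the methods' analysis of variance.

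*Mcm7* (Entrez gene 17220) had log2 signals of 6.40, 6.62 and 6.38 with TGFβ1 and 5.72, 5.56 and 5.95 with ITD-1, against 6.39, 6.19 and 6.30 in control cultures. Its ITD-1 arrays lay below all others, and its TGFβ1 and control arrays overlapped. It was 1.65-fold higher with TGFβ1 than with ITD-1 (log2 fold change 0.72, standard error 0.11, adjusted p = 0.00226), with -0.55 for ITD-1 against control (95% interval -0.80 to -0.30, adjusted p = 0.0851) and 0.17 for TGFβ1 against control. *Mcm4* (Entrez gene 17217) had the same order, with log2 signals of 6.03, 6.01 and 5.76 with TGFβ1 and 5.32, 5.53 and 5.15 with ITD-1, against 5.91, 5.76 and 5.87 in control cultures. It was 1.52-fold higher with TGFβ1 than with ITD-1 (log2 fold change 0.60, standard error 0.11, adjusted p = 0.00626), with -0.51 for ITD-1 against control (adjusted p = 0.107) and 0.09 for TGFβ1 against control. For *Mcm3* (Entrez gene 17215) the signals were 4.29, 4.56 and 4.26 with TGFβ1 and 3.98, 3.96 and 3.70 with ITD-1, against 4.28, 4.13 and 4.36 in control cultures, near the median level of the arrays. Again the ITD-1 arrays lay below all others. *Mcm3* was 1.40-fold higher with TGFβ1 than with ITD-1 (log2 fold change 0.49, standard error 0.11, adjusted p = 0.0189, but 0.0674 without TGFβ1 replicate 2 and 0.0581 without ITD-1 replicate 3), with -0.38 for ITD-1 against control (adjusted p = 0.296) and 0.11 for TGFβ1 against control.

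The remaining ring subunits differed less. *Mcm2* had log2 fold changes of 0.04 for TGFβ1 against control, -0.19 for ITD-1 against control and 0.23 for TGFβ1 against ITD-1 (adjusted p = 0.237). *Mcm5* had 0.04, -0.19 and 0.23 (adjusted p = 0.296) in the same order. For all 6 ring subunits the TGFβ1 arrays lay wholly above the ITD-1 arrays, against 11.3% of all probe sets. Of the 6, 4 were called higher, against 5.92% of all probe sets. All 6 were read on the same arrays. The median log2 fold change of the ring subunits was 0.54 for TGFβ1 against ITD-1, 0.10 for TGFβ1 against control and -0.32 for ITD-1 against control.

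The loaders of the ring did not pass the test in any comparison. *Cdt1* (Entrez gene 67177), which brings the ring to the origin, had log2 signals of 4.95, 4.92 and 4.95 with TGFβ1 and 4.95, 4.57 and 4.73 with ITD-1, against 5.12, 5.05 and 5.00 in control cultures. Within the treated groups, 3 arrays shared the same value of *Cdt1*. Both treatments lay wholly below control, with log2 fold changes of -0.12 for TGFβ1 (adjusted p = 0.639) and -0.31 for ITD-1 (adjusted p = 0.311), and 0.19 for TGFβ1 against ITD-1. *Cdc6*, the ATPase that works with it, had -0.10, -0.17 and 0.08 in these comparisons. *Orc1* and *Orc6*, subunits of the origin recognition complex, had -0.07 and 0.00 for TGFβ1 against control, -0.02 and -0.02 for ITD-1 against control, and -0.05 and 0.03 for TGFβ1 against ITD-1.

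Of the 5 genes that turn the loaded ring into an active helicase, 1 was called higher with TGFβ1 than with ITD-1, against 5.92% of all probe sets. Against control, 0 of the 5 were called. *Gins3* (Entrez gene 78833), a subunit of the 4-membered GINS complex, had log2 signals of 5.95, 6.16 and 6.25 with TGFβ1 and 5.18, 5.56 and 5.61 with ITD-1, against 5.92, 5.78 and 5.51 in control cultures. Its TGFβ1 arrays lay above all others, and ITD-1 and control overlapped. It was 1.60-fold higher with TGFβ1 than with ITD-1 (log2 fold change 0.67, standard error 0.14, adjusted p = 0.0135, but 0.0542 and 0.0523 without TGFβ1 replicates 2 and 3), with 0.39 for TGFβ1 against control (adjusted p = 0.196) and -0.29 for ITD-1 against control (adjusted p = 0.685). The other GINS genes on the list, *Gins1* and *Gins2*, had 0.06 (95% interval -0.11 to 0.22) and 0.06 (-0.19 to 0.30) for TGFβ1 against ITD-1. They had -0.10 and 0.03 for TGFβ1 against control and -0.16 and -0.02 for ITD-1 against control. *Cdc45*, the partner of GINS on the helicase, had -0.04 for TGFβ1 against control, -0.14 for ITD-1 against control and 0.10 between the treatments. *Mcm10*, which acts as the helicase starts to unwind, had -0.19, -0.12 and -0.07.

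None of the 7 polymerase and primase genes was called in any of the 3 comparisons. The shares of all probe sets called in a direction ran from 0.0607% to 5.92%. The primase genes had the widest differences between treatments, 0.27 for *Prim1*, the catalytic subunit (adjusted p = 0.207), and 0.32 for *Prim2* (adjusted p = 0.199), and only the arrays of *Prim1* did not overlap. Against control *Prim1* had 0.11 with TGFβ1 and -0.16 with ITD-1, and *Prim2* had 0.25 and -0.07. *Pole*, the catalytic subunit of the leading strand polymerase, had -0.17 with TGFβ1 and -0.27 with ITD-1 against control, and 0.10 between treatments. Its accessory subunit *Pole2* had 0.10, -0.05 and 0.15. The lagging strand polymerase genes *Pold1* and *Pold3* had 0.05 and 0.15 with TGFβ1, -0.14 and -0.00 with ITD-1, and 0.19 and 0.15 between treatments. *Pola1*, the polymerase that extends the primers, had -0.12, -0.08 and -0.04.

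Among the 8 genes for the clamp, its loader and the single-strand binding protein RPA, *Pcna* was the only one called. It was called higher with TGFβ1 than with ITD-1, as were 5.92% of all probe sets. *Pcna* (Entrez gene 18538) had log2 signals of 9.19, 8.92 and 8.55 with TGFβ1 and 8.49, 8.03 and 8.05 with ITD-1, against 8.76, 8.59 and 8.40 in control cultures. The lowest TGFβ1 array lay just above the highest ITD-1 array, and control overlapped with both. *Pcna* was 1.61-fold higher with TGFβ1 than with ITD-1 (log2 fold change 0.69, standard error 0.18, adjusted p = 0.0368), with 0.30 for TGFβ1 against control (adjusted p = 0.494) and -0.39 for ITD-1 against control (adjusted p = 0.646). This call was not stable. The adjusted p was 0.131 and 0.113 without TGFβ1 replicates 1 and 2, 0.129 and 0.118 without ITD-1 replicates 2 and 3, 0.0624 without control replicate 2, 0.0838 in a fit of only the TGFβ1 and ITD-1 arrays and 0.142 with the methods' analysis of variance.

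The clamp loader genes stayed close together. *Rfc1* to *Rfc5* had log2 fold changes of 0.01, -0.07, -0.00, 0.12 and -0.08 for TGFβ1 against control, in order of their numbers. For ITD-1 against control they had 0.08, -0.14, -0.13, 0.13 and -0.07, and for TGFβ1 against ITD-1 they had -0.08, 0.07, 0.13, -0.00 and -0.01. *Rpa1* and *Rpa2*, which encode the larger subunits of RPA, had -0.11 and 0.04 with TGFβ1, -0.18 and -0.14 with ITD-1, and 0.07 and 0.18 between treatments. *Fen1*, the nuclease that trims the flaps of the lagging strand, and *Lig1*, the ligase that seals them, had -0.00 and 0.01 with TGFβ1, -0.05 and -0.05 with ITD-1, and 0.04 and 0.07 between treatments, and 6 arrays shared one value of *Lig1*.

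The 2 subunits of ribonucleotide reductase, the enzyme that turns ribonucleotides into deoxynucleotides, differed in opposite directions between the treatments. *Rrm1* (Entrez gene 20133), the large subunit with the catalytic site, had log2 signals of 7.90, 8.03 and 7.96 with TGFβ1 and 8.66, 8.60 and 8.54 with ITD-1, against 8.49, 8.48 and 8.51 in control cultures. The 3 groups did not overlap, in the order TGFβ1, control and ITD-1 from low to high. *Rrm1* was 1.45-fold lower with TGFβ1 than in control (log2 fold change -0.53, standard error 0.06, adjusted p = 0.000825), and was 1.55-fold lower with TGFβ1 than with ITD-1 (log2 fold change -0.64, adjusted p = 0.000153). With ITD-1 it differed from control by 0.10 (95% interval -0.04 to 0.25, adjusted p = 0.781). *Rrm2* (Entrez gene 20135), the small subunit that carries the radical and is made mainly in S phase, had log2 signals of 7.68, 7.60 and 7.75 with TGFβ1 and 7.20, 7.14 and 7.36 with ITD-1, against 7.56, 7.47 and 7.61 in control cultures. Its ITD-1 arrays lay below all others. *Rrm2* was 1.36-fold higher with TGFβ1 than with ITD-1 (log2 fold change 0.44, standard error 0.08, adjusted p = 0.00548), with 0.13 for TGFβ1 against control (adjusted p = 0.513) and -0.31 for ITD-1 against control (adjusted p = 0.197). The calls of *Rrm1* and *Rrm2* at an adjusted p under 0.05 were kept with each array left out in turn.

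The other genes of nucleotide supply were not called. *Tyms*, thymidylate synthase, had log2 fold changes of -0.13 with TGFβ1, -0.24 with ITD-1 and 0.10 between treatments. *Tk1*, the thymidine kinase of dividing cells, had -0.16, -0.01 and -0.15, and its TGFβ1 arrays lay below all others. *Dut*, which removes dUTP, had -0.12, -0.06 and -0.07.

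Of the 5 genes that copy chromatin and DNA methylation or repair the new strands, 1 was called higher with TGFβ1 than with ITD-1, against 5.92% of all probe sets. *Chaf1b* (Entrez gene 110749), a subunit of the histone chaperone CAF-1, had log2 signals of 4.27, 4.42 and 4.14 with TGFβ1 and 3.50, 3.63 and 3.92 with ITD-1, against 4.25, 4.29 and 4.32 in control cultures. Its ITD-1 arrays lay below all others, and its TGFβ1 and control arrays overlapped. It was 1.51-fold higher with TGFβ1 than with ITD-1 (log2 fold change 0.60, standard error 0.11, adjusted p = 0.00674), with -0.60 for ITD-1 against control (95% interval -0.85 to -0.36, adjusted p = 0.0522) and -0.01 for TGFβ1 against control. The probe set of *Chaf1b* is dim, with a mean of 4.08 over all arrays, below the median level. *Chaf1a*, the other large subunit of CAF-1, had 0.03, 0.03 and 0.00, on values shared by 7 arrays.

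*Uhrf1* (Entrez gene 18140), which finds half-methylated DNA behind the fork, had log2 signals of 4.84, 4.55 and 4.96 with TGFβ1 and 4.51, 4.50 and 4.63 with ITD-1, against 5.03, 4.97 and 5.07 in control cultures. Both treatments lay below control without passing the test, with log2 fold changes of -0.24 for TGFβ1 (adjusted p = 0.275) and -0.48 for ITD-1 (adjusted p = 0.101), and 0.24 between treatments (adjusted p = 0.213, but 0.0276 without TGFβ1 replicate 2). *Dnmt1* (Entrez gene 13433), the methyltransferase that UHRF1 brings in, had 6.84, 6.89 and 6.84 with TGFβ1 and 6.82, 6.66 and 6.77 with ITD-1, against 6.94, 6.97 and 6.93 in control cultures. The groups stood in the same order with smaller distances, -0.09 for TGFβ1 (adjusted p = 0.593), -0.20 for ITD-1 (adjusted p = 0.366) and 0.11 between treatments. *Brca1*, which acts in repair at stalled forks, had -0.17, -0.14 and -0.03.

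The 6 genes that drive the step from G1 to S phase included none that was called, where the shares of all probe sets ran from 0.0607% to 5.92%. *Ccne1*, cyclin E1, had log2 fold changes of -0.41 with TGFβ1 (adjusted p = 0.248) and -0.45 with ITD-1 (adjusted p = 0.504), with both treatments wholly below control, and 0.04 between treatments (95% interval -0.33 to 0.41). *Ccne2* had 0.02, -0.07 and 0.09. Their kinase *Cdk2* had -0.21 with TGFβ1 (adjusted p = 0.276), -0.17 with ITD-1 and -0.05 between treatments. The activating factors *E2f1* and *E2f2* had -0.00 and -0.30 with TGFβ1, -0.16 and 0.10 with ITD-1, and 0.16 and -0.40 between treatments, and the repressor *E2f8* had 0.12, 0.05 and 0.07.

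**Figure D2:**
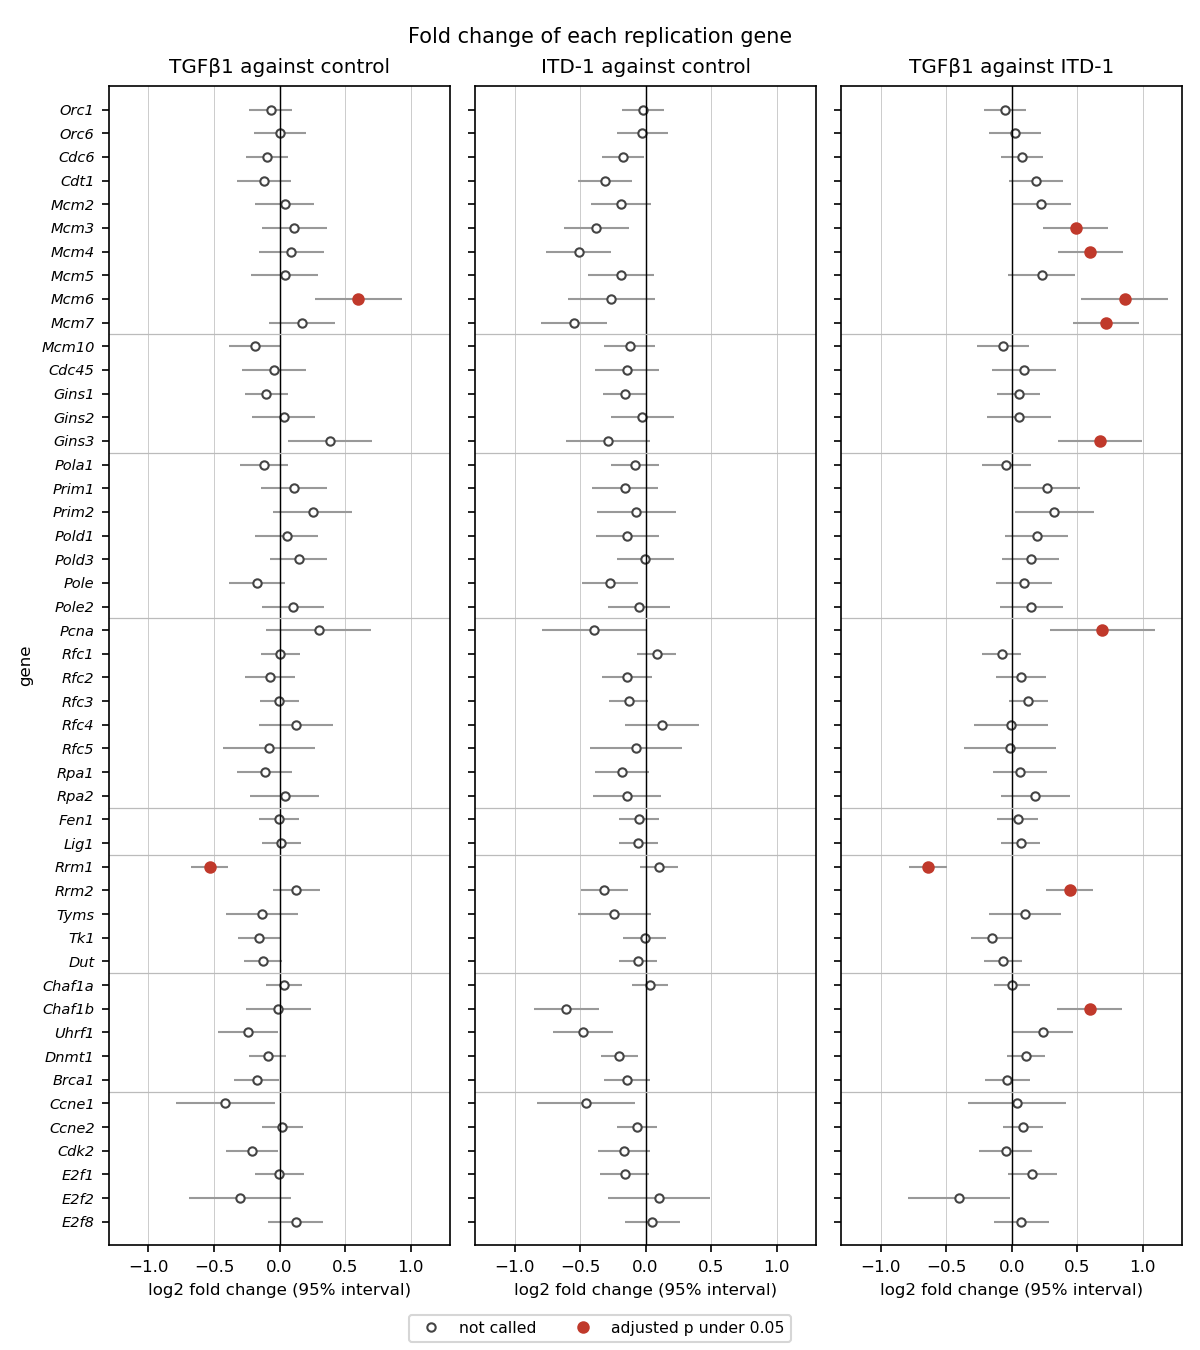
Log2 fold change of each of the 48 genes with its 95% interval from limma, in panels for TGFβ1 against control, ITD-1 against control and TGFβ1 against ITD-1. Filled points passed an adjusted p under 0.05, which were 2 genes in the first panel, 0 in the second and 9 in the third.

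**Figure D3:**
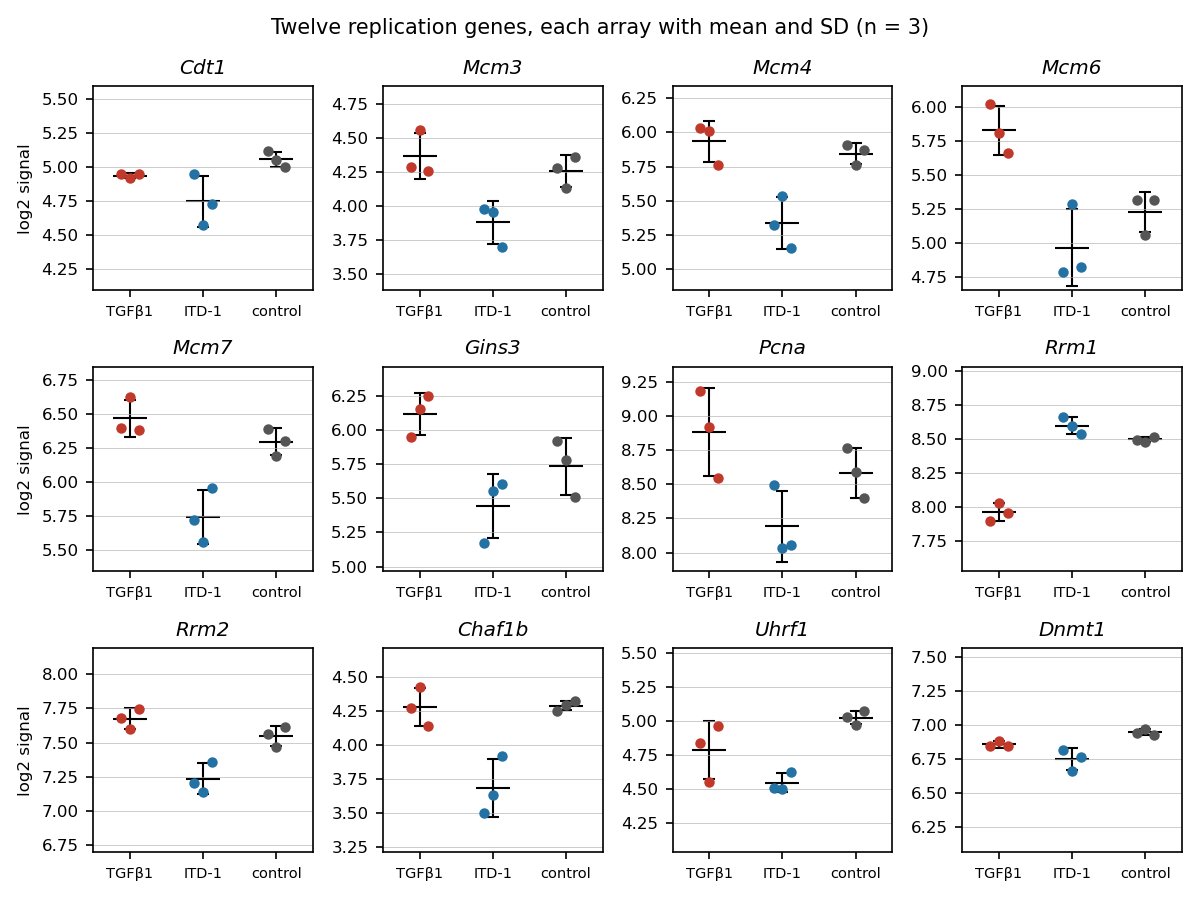
Log2 signal on each array for the 9 replication genes called in a comparison and 3 more with the smallest unadjusted p, with the group mean and standard deviation of 3 arrays and a y axis of its own for each gene. For *Mcm3*, *Mcm4*, *Mcm7*, *Rrm2* and *Chaf1b* the ITD-1 points lie below both other groups, for *Mcm6* and *Gins3* the TGFβ1 points lie above both, and for *Rrm1* the TGFβ1 points lie below both.

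A wider list of 41 measured replication genes outside the 48 held licensing regulators, further polymerase subunits, checkpoint and fork factors. Of these, 1 (*Gmnn*) was higher with TGFβ1 than in control and 40 did not pass, where 3.65% of all probe sets were higher. None passed with ITD-1 by limma, where 0.0607% of all probe sets were called higher and 0.575% lower. At an unadjusted p under 0.05 the list had 0 higher and 3 lower, against 3.42% and 4.46% of all probe sets. With TGFβ1 over ITD-1, 3 were higher (*Dbf4*, *Topbp1* and *Mcm9*, the last 2 named after their values were seen), against 5.92%. These counts lie near the shares over all probe sets. Median log2 fold changes were 0.02, -0.03 and 0.10 for TGFβ1 against control, ITD-1 against control and TGFβ1 against ITD-1. *Gmnn*, geminin, which keeps CDT1 from loading the helicase a second time, had log2 signals of 3.84, 3.45 and 4.02 with TGFβ1 and 3.54, 3.43 and 3.49 with ITD-1, against 3.28, 3.21 and 3.21 in control cultures. Both treatments lay above control. The probe set is dim, with a mean of 3.50 over all arrays, below the median level, and a shared value on 2 control arrays. The log2 fold change was 0.53 with TGFβ1 (standard error 0.12, adjusted p = 0.0332) and 0.25 with ITD-1 (adjusted p = 0.693). The call of *Gmnn* was lost in 12 alternatives, with an adjusted p of 0.0509 to 0.124 without any one array other than TGFβ1 replicate 2 and of 0.0713 with the replicate number as a block in a fit of TGFβ1 and control alone.

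*Dbf4*, the regulatory subunit of the kinase that fires licensed origins, had log2 signals of 4.83, 4.84 and 4.48 with TGFβ1 and 3.87, 4.16 and 4.29 with ITD-1, against 4.41, 4.23 and 4.34 in control cultures. The TGFβ1 arrays lay above all others. *Dbf4* was 1.52-fold higher with TGFβ1 than with ITD-1 (log2 fold change 0.61, standard error 0.13, adjusted p = 0.0136, but 0.0616 and 0.0613 without TGFβ1 replicates 1 and 2), with 0.39 for TGFβ1 against control (adjusted p = 0.137, but 0.0492 without TGFβ1 replicate 3) and -0.22 for ITD-1 against control. *Topbp1*, an activator of the checkpoint kinase ATR, and *Mcm9*, a relative of the ring subunits that acts in repair, had 0.39 (adjusted p = 0.0179) and 0.36 (adjusted p = 0.0347) between treatments. Their calls were lost without single arrays, *Topbp1* without TGFβ1 replicate 2 or 3 or ITD-1 replicate 3 (adjusted p of 0.0523 to 0.0588) and *Mcm9* without control replicate 1, TGFβ1 replicate 1 or 2 or ITD-1 replicate 2 or 3 (0.0562 to 0.120). The probe set of *Mcm9* is also dim, with a mean of 3.60 over all arrays, below the median level. *Orc3* and *Pold4*, named by their small unadjusted p, were not called, with -0.24 and -0.12 for TGFβ1 against control, 0.04 and -0.34 for ITD-1 against control, and -0.28 and 0.21 between treatments.

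Among genes of mitosis, the called ones were lower than in control. Of 19 measured, 3 were lower with TGFβ1 than in control and 16 did not pass, against 2.78% of all probe sets called lower, and 1 was lower with ITD-1, against 0.575%. At an unadjusted p under 0.05, 10 of 19 were lower with TGFβ1, against 7.68% of all probe sets, and 12 of 19 were lower with ITD-1, against 4.46%, with 0 higher in either comparison. The TGFβ1 arrays lay wholly below control for 9 of 19 genes, against 10.1% of all probe sets, and the ITD-1 arrays for 14 of 19, against 5.92%. Fold changes of ITD-1 against control were below 0 on the log2 scale for 19 of 19 mitosis genes and for 42 of the 48 replication genes. The share of all probe sets below 0 was 47.7%. Between treatments 0 were called by limma, against 5.92% of all probe sets called higher with TGFβ1 and 4.26% lower. At an unadjusted p under 0.05, 1 was higher, against 10.8%. Median log2 fold changes were -0.19 with TGFβ1, -0.23 with ITD-1 and 0.07 between treatments. *Top2a*, the topoisomerase that untangles sister chromatids, had log2 signals of 4.55, 4.63 and 4.46 with TGFβ1 and 4.51, 4.47 and 4.39 with ITD-1, against 5.48, 5.02 and 5.28 in control cultures. Both treatments lay below control and overlapped each other. *Top2a* was 1.64-fold lower with TGFβ1 than in control (log2 fold change -0.71, standard error 0.11, adjusted p = 0.00365) and 1.74-fold lower with ITD-1 (-0.80, adjusted p = 0.0143), with 0.09 between treatments (95% interval -0.16 to 0.33). With ITD-1 the adjusted p of *Top2a* was 0.0507 or 0.0706 when control array 1 or 3 was left out and 0.0527 or 0.0535 when ITD-1 array 1 or 2 was, and 0.0765 in a fit of ITD-1 and control alone.

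*Plk1*, a kinase of mitotic entry and spindle assembly, had log2 signals of 4.99, 5.08 and 5.21 with TGFβ1 and 5.22, 5.22 and 5.05 with ITD-1, against 5.80, 5.51 and 5.51 in control cultures. It fell by 0.51 with TGFβ1 (standard error 0.10, adjusted p = 0.0133, but 0.0628 and 0.0527 without TGFβ1 replicates 1 and 2 and 0.0696 with the replicate number as a block in a fit of these 2 groups) and had -0.44 with ITD-1 (adjusted p = 0.135). *Mki67*, the gene of the proliferation marker Ki-67, was the third lower with TGFβ1 (-0.65, adjusted p = 0.037) and had -0.59 with ITD-1 (adjusted p = 0.218), and it was named after its values were seen. The call of *Mki67* was lost with the replicate number as a block on all arrays (adjusted p = 0.0594) and without any control replicate, TGFβ1 replicate 1 or 2 or ITD-1 replicate 3 (0.0565 to 0.141). *Tpx2*, a spindle assembly factor, had -0.29 with TGFβ1 and -0.50 with ITD-1 (adjusted p = 0.0767), and *Kif20a*, a motor of cytokinesis, had -0.19 and -0.39 (adjusted p = 0.0851).

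The listed regulators of G1, the phase before S phase, moved in both directions. Of 20, 2 were higher and 2 lower with TGFβ1 than in control, against 3.65% and 2.78% of all probe sets. With ITD-1, 0 were higher and 2 lower, against 0.0607% and 0.575%, and with TGFβ1 over ITD-1, 6 were higher and 4 lower, against 5.92% and 4.26%. *Ccnd1*, cyclin D1, had log2 signals of 7.12, 7.52 and 7.12 with TGFβ1 and 6.28, 6.34 and 6.51 with ITD-1, against 7.25, 7.52 and 7.55 in control cultures. The ITD-1 arrays lay below all others. *Ccnd1* was 2.09-fold lower with ITD-1 than in control (log2 fold change -1.06, standard error 0.13, adjusted p = 0.00885, but 0.0593 without control replicate 2) and 1.83-fold higher with TGFβ1 than with ITD-1 (0.87, adjusted p = 0.00163), with -0.19 for TGFβ1 against control (adjusted p = 0.573). *Ccnd2*, cyclin D2, had 9.46, 9.55 and 9.40 with TGFβ1 and 9.10, 9.02 and 8.98 with ITD-1, against 9.51, 9.64 and 9.57 in control cultures. It followed *Ccnd1*, with -0.54 for ITD-1 against control (adjusted p = 0.0119, but 0.0655 or 0.0541 when control array 2 or 3 was left out), 0.44 between treatments (adjusted p = 0.00266) and -0.10 for TGFβ1 against control. By the methods' analysis of variance after adjustment, *Ccnd1* (adjusted p = 0.0927) and *Ccnd2* (0.0599) were not called with ITD-1 against control.

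*Cdk6*, a kinase partner of the D cyclins, had log2 signals of 5.53, 6.10 and 5.53 with TGFβ1 and 5.05, 4.98 and 4.90 with ITD-1, against 5.59, 5.84 and 5.87 in control cultures. Its ITD-1 arrays lay below all others, with a log2 fold change of 0.74 for TGFβ1 against ITD-1 (standard error 0.15, adjusted p = 0.0103) and -0.79 for ITD-1 against control (adjusted p = 0.061, but 0.0139 without TGFβ1 replicate 2). *Myc*, a transcription factor that promotes growth and entry into S phase, had 6.92, 7.11 and 6.74 with TGFβ1 and 5.71, 5.65 and 6.18 with ITD-1, against 6.14, 6.13 and 5.73 in control cultures. Here the TGFβ1 arrays lay above all others. *Myc* rose 1.90-fold with TGFβ1 over control (log2 fold change 0.93, standard error 0.17, adjusted p = 0.00835) and was 2.11-fold higher than with ITD-1 (1.08, adjusted p = 0.00212), with -0.15 for ITD-1 against control.

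The other called regulators were named after their values were seen. *Cdk4*, the second kinase of the D cyclins, had log2 signals of 9.78, 9.80 and 9.60 with TGFβ1 and 8.96, 8.90 and 9.10 with ITD-1, against 9.42, 9.34 and 9.50 in control cultures. The 3 groups did not overlap, and *Cdk4* was 1.67-fold higher with TGFβ1 than with ITD-1 (log2 fold change 0.74, standard error 0.08, adjusted p = 0.000319), with 0.31 (adjusted p = 0.0658) and -0.43 (adjusted p = 0.0703) for TGFβ1 and ITD-1 against control. *Rb1*, the retinoblastoma gene, stood in the opposite order, with 10.17, 10.25 and 10.20 with TGFβ1 and 10.85, 10.79 and 10.53 with ITD-1, against 10.45, 10.46 and 10.47 in control cultures. It was 1.43-fold lower with TGFβ1 than with ITD-1 (-0.52, standard error 0.08, adjusted p = 0.00317). The calls of *Cdk4* and *Rb1* between treatments were kept with each array left out in turn.

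Among the rest, *Rbl2*, a relative of *Rb1*, was higher with TGFβ1 than in control (0.31, adjusted p = 0.0143) and than with ITD-1 (0.28, adjusted p = 0.0187), and *E2f6*, a repressor of the E2F family, was lower (-0.56, adjusted p = 0.0139, and -0.57, adjusted p = 0.00822). *Ccnd3*, cyclin D3, was lower with TGFβ1 than in control (-0.58, adjusted p = 0.0466). The kinase inhibitors *Cdkn1b* and *Cdkn2c* were lower with TGFβ1 than with ITD-1 (-0.61, adjusted p = 0.0409, and -0.37, adjusted p = 0.0331). Against control the calls were lost without single arrays for *Rbl2* (control replicate 1 or 2 or TGFβ1 replicate 2, adjusted p of 0.0514 to 0.0555), for *E2f6* (control replicate 1 or TGFβ1 replicate 1, 0.0572 and 0.0650) and for *Ccnd3* (any but ITD-1 replicate 2 or 3, 0.0636 to 0.160, and 0.0958 with the replicate block on all arrays). Between treatments they were lost for *Rbl2* (TGFβ1 or ITD-1 replicate 1 or 2, 0.0508 to 0.0691), for *Cdkn1b* (control replicate 2, TGFβ1 replicate 1 or 3 or any ITD-1 replicate, 0.0665 to 0.131) and for *Cdkn2c* (any TGFβ1 replicate or ITD-1 replicate 1 or 2, 0.0650 to 0.113).

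**Figure D4:**
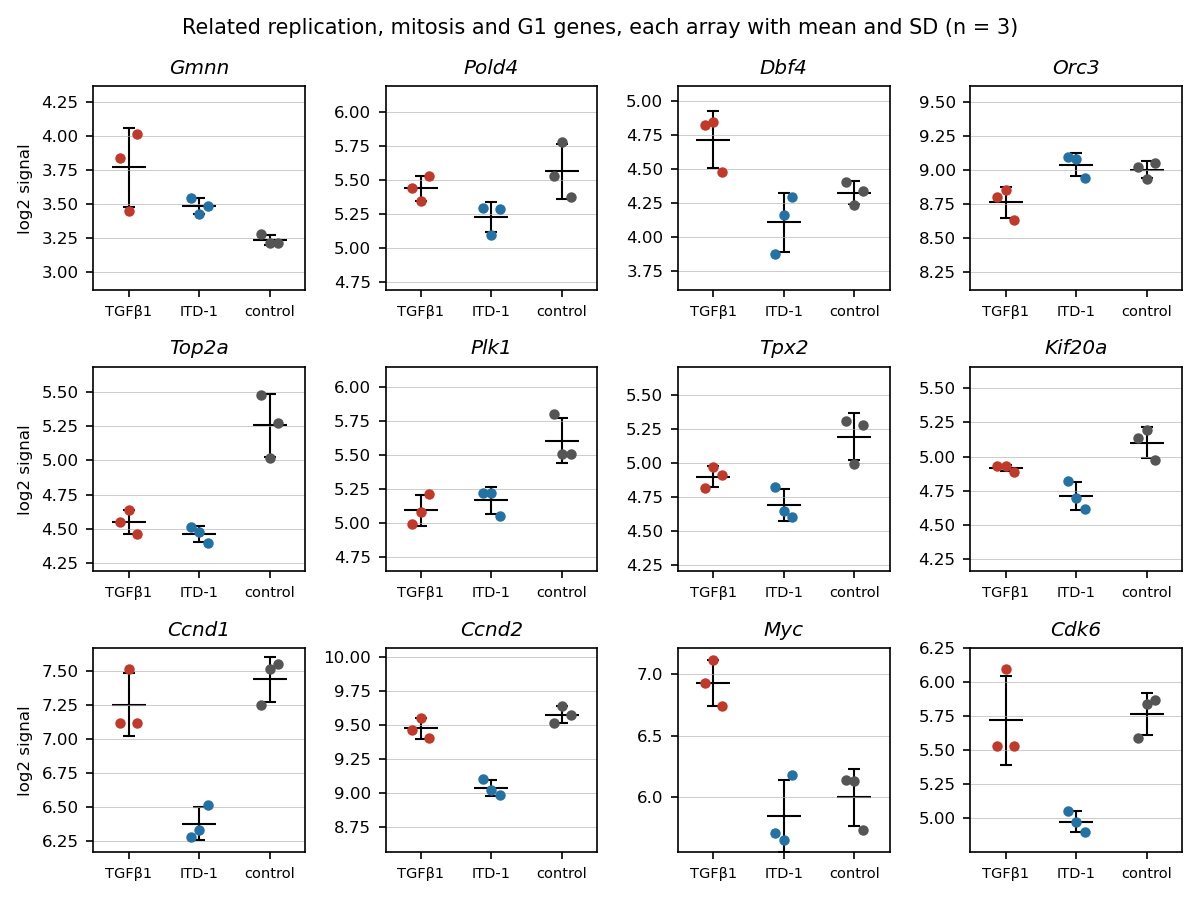
Log2 signal on each array for the 4 genes of each related list with the smallest unadjusted p against control, with the group mean and standard deviation of 3 arrays. *Top2a* and *Plk1* are below control in both treated groups, *Ccnd1*, *Ccnd2* and *Cdk6* are low with ITD-1, and *Dbf4* and *Myc* are high with TGFβ1.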

How the data were processed

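Transcripts of 9 cultures (TGFβ1, ITD-1 and control, 3 each) were measured on Affymetrix MouseGene 2.0 ST arrays. The authors ran RMA in Bioconductor on probe sets of a custom CDF (version 22). The deposited values are log2 signals, 1 per probe set and array. RMA forces the arrays to a shared distribution, so a change of all genes at once cannot be seen. Of 25428 probe sets, the 24704 that map to 1 gene symbol entered the tests. A symbol was lacking for 723, and 1 shared its symbol with another probe set and was not used. Symbols came from the platform annotation by Entrez gene. No array was left out, and the files name no genome build.

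Groups were compared with limma 3.58.1 (lmFit and eBayes) in R 4.3.3 on the 9 arrays together, without covariates. The methods name a one-way analysis of variance with an unadjusted p under 0.05 and at least 1.5-fold, which was run as an alternative. A call needed a two-sided p under 0.05 after Benjamini-Hochberg adjustment across the 24704 probe sets, and intervals are 95% intervals from the same fit. The members and the gene lists were chosen with earlier results of these data known. All members are named with their fold change. Values on every array are given for members called in any comparison, completed to 12 by the smallest unadjusted p against control, and from each of 3 related lists the 4 genes with the smallest unadjusted p against control in either treatment are named. Residuals of TGFβ1 and control arrays with the same replicate number correlated across genes at 0.138, 0.155 and 0.305, so these numbers were taken to pair the arrays, although the labels do not say what a number shares, and fits with the replicate number as a block were run. Other alternatives were centring, cyclic loess, a filter on low signal, trend and robust eBayes, array weights, fits of 2 groups, and each array left out. The fit was tested on simulated data. Promoter windows are RefSeq's, searched for exact letters.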

Additional observations from a re-analysis of the deposited data

How the results depend on the processing

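The count of replication genes lower with ITD-1 than in control, 0, was 1 when dim probe sets (under the median level) were dropped, 2 with array weights, 1 by the methods' criteria and 0 to 2 with each array left out. The count higher with TGFβ1 than in control, 1 (*Mcm6*), was 0 with the replicate number as a block on all arrays, 0 with the methods' analysis of variance after adjustment and 0 to 1 with each array left out. The count lower with TGFβ1, 1 (*Rrm1*), was 0 by the methods' criteria, since its change is under 1.5-fold. The count higher with TGFβ1 than with ITD-1, 8, was 5 with the analysis of variance, 6 with the replicate block in a fit of only these groups, 9 with it on all arrays and 6 to 8 with each array left out, and in the block fit of these groups *Mcm7* (adjusted p = 0.0515) and *Chaf1b* (0.0858) were not called. Nor were *Dbf4*, *Cdk6*, *Topbp1*, *Mcm9*, *Rbl2*, *E2f6*, *Cdkn1b*, *Cdkn2c* and *Myh3* (adjusted p of 0.0518 to 0.157), and in the block fit of ITD-1 and control *Ccnd1*, *Ccnd2*, *Top2a* and *Rgs5* were not (0.186 to 0.218). *Cdkn1b* between treatments also had 0.0505 with the block on all arrays. The block changed no other call of a named gene between TGFβ1 and control than those given with the results. By the methods' analysis of variance after adjustment, *Gins3* (adjusted p = 0.0723), *Mcm3* (0.0734) and *Pcna* (0.142) were not called between treatments. The methods' analysis of variance after adjustment also lost *Gmnn*, *Mki67*, *Plk1*, *Myc*, *E2f6*, *Ccnd3* and *Itgam* with TGFβ1 against control (0.0596 to 0.164), *Top2a*, *Ccnd1*, *Ccnd2* and *Rgs5* with ITD-1 against control (0.0599 to 0.1085) and *Dbf4*, *Topbp1*, *Mcm9*, *Cdk6*, *Cdkn1b* and *Cdkn2c* between treatments (0.0519 to 0.146). Fits of only the groups compared lost *Gmnn* (0.0889), *Mki67* (0.0679), *Mcm9* (0.0791) and *Rbl2* between treatments (0.0536), and centring lost *Ccnd3* (0.0829), *Mcm9* (0.0722) and *Cdkn1b* (0.0688). The methods' criteria lost genes with changes under 1.5-fold. Between treatments these were *Rrm2*, *Mcm3*, *Ccnd2*, *Topbp1*, *Mcm9*, *Rbl2*, *E2f6*, *Rb1*, *Cdkn2c* and *Myh3*. Against control they were also *Gmnn*, *Plk1*, *Rbl2*, *E2f6*, *Ccnd3* and *Myh3* with TGFβ1 and *Ccnd2* with ITD-1. With ITD-1 against control these criteria gained *Chaf1b* and *Cdk6*. Same-numbered arrays showed no pairing for ITD-1 and control (r of 0.146, -0.0661 and -0.0707) or for TGFβ1 and ITD-1 (0.0869, -0.113 and -0.117). The small difference of *Chaf1b* between TGFβ1 and control, -0.01, turned to 0.00305 after centring, 0.00427 after cyclic loess, 0.00541 with array weights and lay between -0.0798 and 0.0597 with single arrays left out, and that of *Cdk6*, -0.05, lay between -0.236 and 0.0481. Of 681 values of the 12 named members under alternatives, 642 kept their direction and side of the threshold, 26 lost the call, 8 gained one and 5 turned sign. Most of the 681 had no call in the main fit to lose. The call of *Mcm6* with TGFβ1 against control was lost in 8 of 19 alternatives. Between treatments *Pcna* lost its call in 7 of 19, *Mcm3* in 4 and *Gins3* in 3. *Rrm1* against control and *Mcm7*, *Rrm2* and *Chaf1b* between treatments each lost theirs in 1. The alternatives for genes of the related lists were added after seeing the data. The causes of these differences were not tested.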
